A study of Mus musculus with 16 samples.

Results

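The injury epicenter of the mouse spinal cord was compared with the segment just caudal to it, here called below, across all genes of a table of raw read counts. The comparison used the 4 libraries of each segment, 8 of the 16 libraries of the series, chosen by their group labels and not by any measured value. The mice were 12-week-old females (strain C57BL7J in the labels' spelling), and the library names carry WT. An 8 g Fejota clip had bruised and squeezed the lumbar cord at L1/L3, and tissue was taken at 30 days. The 9 mm of cord centred on the lesion were split into pieces of 3 mm, so both segments came from injured cord. The remaining 8 libraries, 4 of the segment above (rostral) and 4 of uninjured cord taken as 1 piece of 9 mm (T11 to S1), entered the fit to help estimate the spread. The uninjured libraries carry the same time label as the injured ones. The labels do not state that the 4 libraries of a segment came from separate animals, so p-values here speak only of the spread among these samples and that spread may be technical.

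A clip injury destroys tissue at the site where the cord is squeezed. In mice the chronic lesion core is known to be filled with phagocytes and fibroblast-derived matrix, walled off by reactive astrocytes, while grey matter caudal to it keeps many neurons that have lost input from the brain. Along the cord itself, Hox genes are expressed in an order that follows their number, with high-numbered genes in the lumbar and sacral levels, which gives each piece of cord a positional signature. The tissue is bulk, so fewer cells of a type and less RNA per cell cannot be told apart in any result that follows. Values are in CPM, read counts divided by the library total in M counts after scaling by trimmed-mean factors. They are given for replicates 1 to 4 in that order. A gene was called when its Benjamini-Hochberg adjusted p in edgeR's quasi-likelihood F test was under 0.05, and only such genes are described as higher or lower. Fold changes are log2 values of the epicenter over below, each with its standard error (SE).

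The 8 libraries held 67.1 M to 90.0 M counts. A count of 0 leaves room for up to 3 counts at 95% confidence, which were worth 0.0316 to 0.0445 CPM in a library. Markers of cord tissue were present in every library of both segments: Snap25 and Rbfox3 of neurons, Mbp of myelin, Gfap of astrocytes and Csf1r of microglia were all above 15 CPM in each. The share of counts on 3 rows that take reads of ribosomal RNA type (Yam1, AY036118 and Lars2) was 10.1 ± 2.28% (SD, n = 4) at the epicenter and 5.23 ± 0.849% (n = 4) below, a difference of 4.85 percentage points. The groups did not overlap, and the exact two-sided permutation test gave p = 0.0286, the smallest that 4 against 4 allows. Library totals were 75.6 ± 6.83 M and 79.7 ± 7.25 M (SD, n = 4 each; exact two-sided permutation p = 0.457). The part of the ribosomal share in the results was not tested, but scalings that treat these rows differently are given beside the counts below.

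Below 3 stood apart from the other libraries of its segment. On the first principal component of all 16 libraries, which held 66.4% of the variance, below 3 lay at 112, beyond the epicenter libraries at 87.9 to 105.2, while below 1, 2 and 4 lay at 34.2, -9.98 and 42.1. Its Spearman correlation across genes was 0.950 to 0.971 with the other below libraries and 0.972 to 0.987 with the epicenter libraries. The neuronal marker Snap25 read 1271, 1659.5, 223 and 1277 CPM below against 943, 1039, 633 and 1097 at the epicenter, and Rbfox3, a marker of neuronal nuclei, read 106, 127, 15.7 and 89.7 below against 69.1, 75, 46.2 and 71. In both genes the third value, below 3, was lower than every epicenter library. The lysosomal protease gene Ctsd read 2276, 882, 7252 and 2293 CPM below against 4680.1, 3752, 4781 and 3194 at the epicenter, so there below 3 was the highest of the 8 libraries. Of 10075 genes that were called without below 3 and reached 1 CPM in the higher group, below 3 lay nearer the epicenter mean than the mean of the other below libraries in 7436 (73.8%). The caudal genes Hoxc12 and Hoxc13 went with its label, at 2.12 and 0.932 CPM in below 3 and at or under 0.0263 CPM in every epicenter library. Over all tested lumbar and sacral Hox genes below 3 lay between the groups. Its mean log2(CPM + 0.1) was 1.87, against -0.23 to 0.84 at the epicenter and 2.81 to 3.20 in below 1, 2 and 4. Counts are therefore given with and without below 3, as are the tests of the genes that the comparison turns on.

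With all libraries, 5062 of 23769 genes were called between the segments, 21.3% of those tested, of which 2626 (11.0%) were higher and 2436 (10.2%) lower at the epicenter. Without below 3 the count was 11057 of 24048 (46.0%), with 5609 (23.3%) higher and 5448 (22.7%) lower. The calls of the full comparison were nearly all among the larger set: 4972 of 5062 were called again in the same direction, and none was called in the opposite one. The 4 epicenter values lay entirely above or below the 4 below values in 3483 genes (14.7%; 8.73% above and 5.92% below), and 2821 of these were called. The median fold change of all genes was 0.02 with below 3 and 0.03 without it. The count depends on the spread that the fit assumes: with only the 8 libraries in the fit, 31 of 23066 genes (0.134%) were called, 29 higher and 2 lower, and 54 were called with a replicate block in that fit. With only the epicenter libraries and below 1, 2 and 4 in the fit, 8464 of 23400 (36.2%) were called. Scaling moved the balance of directions: 51.9% of calls were higher with trimmed-mean factors, 41.1% with upper-quartile factors, 30.7% with library totals alone, 37.6% with trimmed-mean factors after the ribosomal rows were left out and 50.1% with library totals after the same step. Leaving out any 1 of 6 other libraries also lowered the count by over 1.5 times: it was 3019 without epicenter 1, 2999 without epicenter 2, 2335 without epicenter 4, 3113 without below 1, 2884 without below 2 and 2917 without below 4. Unless stated, each gene named as higher or lower kept its call when any 1 of the 8 libraries, below 3 included, was left out. These fits kept the libraries of the segment above and of uninjured cord, which help set the spread. Among genes in the text, 108 were called with all libraries and 12 with only the 8 libraries in the fit. The naming rule for the 12 largest rises and 12 largest falls required groups that do not overlap. For genes named by it, lack of overlap is part of the selection.

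**Figure D1:**
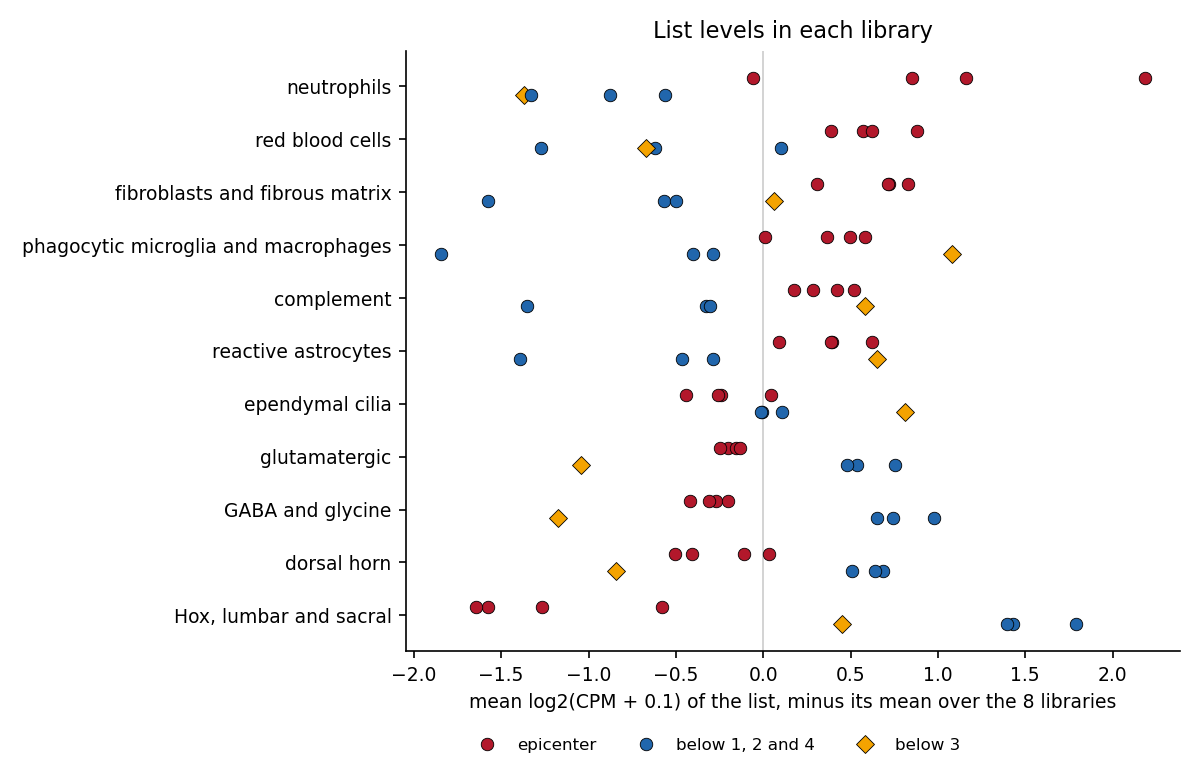
Mean log2(CPM + 0.1) of the tested members of 11 gene lists in each library, centred on the mean of the 8 libraries (x axis) for each list (y axis). Red points are the epicenter libraries, blue points below 1, 2 and 4, and orange diamonds below 3. Below 3 lies with the other below libraries for neutrophils and red blood cells, at or beyond the epicenter for phagocytes, astrocytes and neuronal lists, and between the groups for the lumbar and sacral Hox genes.

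Hox genes, transcription factors that set identity along the body axis, differed by their number. Of 10 tested lumbar and sacral genes (numbers 10 to 13), 7 were lower at the epicenter with all libraries and 10 of 10 without below 3. Of all genes, 10.2% and 22.7% were called lower in these fits. The median fold change of the 10 genes was -3.09, or -3.11 with the genes that had no count at the epicenter set at their bound. The largest ratio with counts in both segments was at Hoxc12 (chr15:102936757-102938609, mm10), which read 7.97, 13.2, 2.12 and 6.46 CPM below. At the epicenter it had 4 counts over all 4 libraries against 2570 below, a ratio of 576 with an exact 95% interval of 225 to 2117 that covers counting error only. Hoxc13 had no count at the epicenter and 886 below, which made it at least 265-fold higher below, using 3 counts over the group as the floor. Hoxa13 likewise had no count at the epicenter and 82 below, at least 24.5-fold. All 3 genes were called (adjusted p = 1.11e-05, 0.0013 and 0.00737), and their groups did not overlap.

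Hoxd11 read 0.691, 5.86, 0.349 and 0.386 CPM at the epicenter and 25.5, 31.5, 8.27 and 25.7 CPM below. Epicenter 2 and below 3 were the values nearest to the other group, which did not overlap (log2 fold change -3.64 ± 0.72, adjusted p = 0.00577; -3.92 ± 0.64, adjusted p = 1.74e-04 without below 3). Hoxa11, a gene of the same number in another cluster, read 3.65, 4.33, 2.67 and 1.43 CPM at the epicenter and 10.6, 10.1, 8.8 and 7.98 CPM below. Hoxa11 had a log2 fold change of -1.63 ± 0.26, adjusted p = 0.00278. Its antisense transcript Hoxa11os showed the same order of groups, 3.29, 3.53, 2.02 and 1.22 CPM at the epicenter and 7.6, 8.98, 8.43 and 6.17 CPM below (log2 fold change -1.63 ± 0.27, adjusted p = 0.0031). Hoxa11 shares 35% of its exonic bases with Hoxa11os. The library kit does not mark the strand, so reads from the shared bases cannot be told apart. Hotair, a long noncoding RNA transcribed from the HoxC cluster against the direction of the Hox genes, read 0.179, 1.72, 0.107 and 0.223 CPM at the epicenter and 6.5, 10.7, 4.18 and 6.88 CPM below. Hotair had a log2 fold change of -3.66 ± 0.63, adjusted p = 0.00349. Hoxd10 was lower at the epicenter (log2 fold change -1.48 ± 0.33, adjusted p = 0.00866) and overlapped only through below 3, at 32.9, 36.1, 16.3 and 31.6 CPM below and 10.9, 16.6, 7.44 and 6.89 at the epicenter. Hoxd13 had 13 counts at the epicenter and 120 below, a ratio of 8.28 (exact interval 4.66 to 16.0). Hoxc11 just missed the threshold with all libraries (log2 fold change -3.16 ± 1.09, adjusted p = 0.0503; -3.32 ± 1.11, adjusted p = 0.0224 without below 3) although its groups did not overlap, with epicenter 2 at 3.62 CPM and the other epicenter libraries at or under 0.416.

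Among genes numbered 4 to 9, 7 were higher at the epicenter with all libraries and none was lower, and without below 3 the count was 7 higher and 3 lower. Hoxc8, which marks thoracic and brachial levels in the mouse, read 27.6, 30.4, 29.9 and 38.3 CPM at the epicenter and 13.5, 12.1, 14 and 14 CPM below. The segments did not overlap, and below 3 lay close to the other below libraries (log2 fold change 1.24 ± 0.09, adjusted p = 1.09e-05; 1.26 ± 0.10, adjusted p = 1.24e-06 without below 3). Of the 10 tested Hox genes of cervical to thoracic number (4 to 6), 5 were higher at the epicenter with all libraries, beside 11.0% of all genes, and 5 were higher and 1 lower without below 3, beside 23.3% and 22.7%. The 5 were Hoxc6 (log2 fold change 0.74 ± 0.09, adjusted p = 9.55e-04), Hoxc4 (log2 fold change 0.71 ± 0.12, adjusted p = 0.0030) and Hoxa5 (log2 fold change 0.42 ± 0.08, adjusted p = 0.00472), with Hoxa4 and Hoxb4, whose calls were lost without epicenter 4 (adjusted p = 0.0568 and 0.0889), and without below 4 for Hoxa4 and below 2 for Hoxb4. Among 9 thoracic genes (numbers 7 to 9), Hoxc8 and Hoxc9 were higher (log2 fold change 0.60 ± 0.12, adjusted p = 0.00617), and no other passed with all libraries. The genes that did not pass included Hoxb5 to Hoxb9, in which below 3 was the lowest library: Hoxb8 read 96.5, 99.7, 70.4 and 86.7 CPM at the epicenter and 113, 125, 25.1 and 102 CPM below. Hoxb8 had a log2 fold change of -0.05 ± 0.31, adjusted p = 0.921, and -0.36 ± 0.10, adjusted p = 0.00689 without below 3. Hoxb7 did not pass with all libraries (log2 fold change -0.12 ± 0.20, adjusted p = 0.687) and was lower without below 3 (log2 fold change -0.33 ± 0.10, adjusted p = 0.0143). Hoxd4 read 23.8, 24.8, 25.9 and 22.9 CPM at the epicenter and 28, 31.7, 22.8 and 28.9 CPM below. It did not pass with all libraries (log2 fold change -0.19 ± 0.09, adjusted p = 0.138) and was lower without below 3, where its groups did not overlap (log2 fold change -0.28 ± 0.07, adjusted p = 0.00572). Hoxd4 shares 52.3% of its exonic bases on the same strand with other gene models, Hoxd3 among the overlapping genes, so its reads are uncertain. Hoxa6, Hoxa7, Hoxa9, Hoxc5, Hoxd8 and Hoxd9 did not pass with all libraries. Hoxa10 and Hoxc10, the lumbar genes of lowest number, overlapped through below 3 and passed only without it (log2 fold change -0.43 ± 0.08, adjusted p = 3.11e-04; log2 fold change -0.45 ± 0.10, adjusted p = 0.00202).

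**Figure D2:**
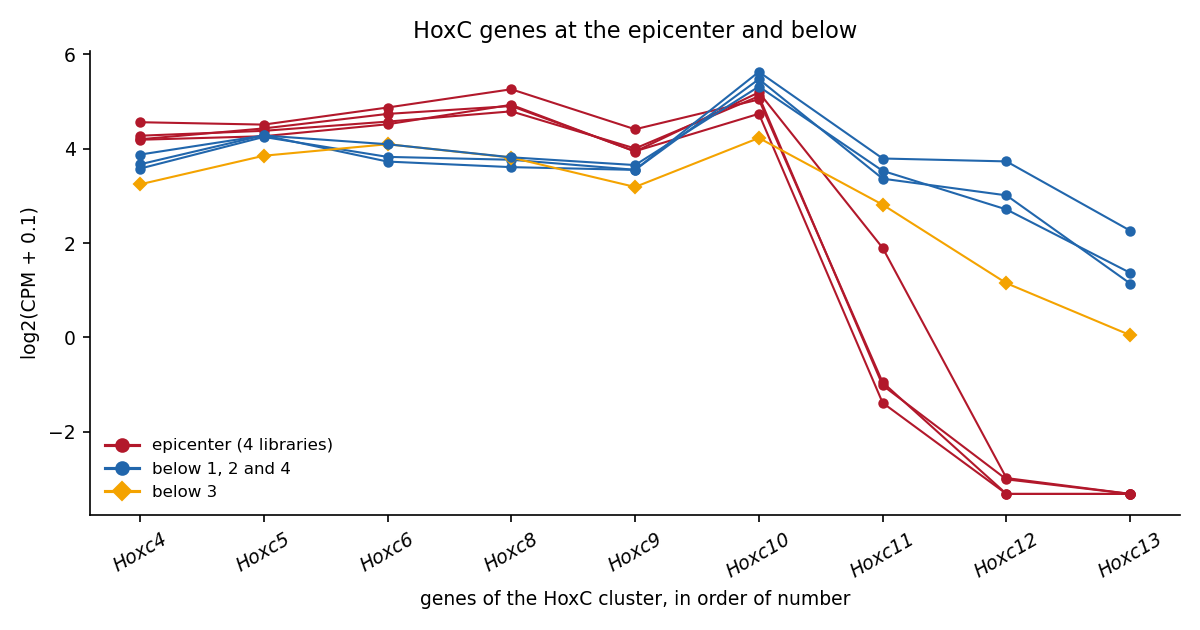
Levels of 9 HoxC genes, as log2(CPM + 0.1) on the y axis, in each of the 4 epicenter libraries (red), below 1, 2 and 4 (blue) and below 3 (orange), with genes in order of number on the x axis. Hoxc8 lies higher in the epicenter libraries, Hoxc12 and Hoxc13 lie near or at 0 CPM there, and epicenter 2 differs from the other epicenter libraries at Hoxc11.

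Genes of bone matrix and its turnover were among those with the largest differences. Mmp13 (chr9:7272514-7283333), a collagenase that cleaves fibrillar collagen, read 9.24, 12.9, 42.7 and 36.3 CPM at the epicenter and 0.175, 0.348, 0.598 and 0.46 CPM below. The lowest epicenter value was above the highest below value, which was below 3 (log2 fold change 5.99 ± 0.66, adjusted p = 4.81e-04; 6.26 ± 0.69, adjusted p = 7.57e-06 without below 3). Ibsp, a sialoprotein of mineralized matrix, read 3.62, 5.82, 21.8 and 12.7 CPM at the epicenter and 0.488, 0.284, 0.311 and 0.205 CPM below. Ibsp had a log2 fold change of 5.09 ± 0.62, adjusted p = 8.32e-04, and 5.07 ± 0.67, adjusted p = 3.03e-05 without below 3. Bglap, the hormone osteocalcin made by osteoblasts, read 1.82, 3.72, 10.7 and 3.21 CPM at the epicenter and 0.10, 0.0948, 0.311 and 0.102 CPM below (log2 fold change 4.99 ± 0.82, adjusted p = 0.0030), and its near-identical copy Bglap2 moved the same way (log2 fold change 4.17 ± 0.52, adjusted p = 9.55e-04), though reads may be split between them. Phex, an endopeptidase of osteoblasts and osteocytes, read 1.28, 1.23, 2.32 and 1.13 CPM at the epicenter and 0.301, 0.211, 0.311 and 0.345 CPM below. Phex had a log2 fold change of 2.35 ± 0.44, adjusted p = 0.00478. In all 5 genes the segments did not overlap, which the naming rule required for Mmp13 and Ibsp, and epicenter 3 was the highest library. The list of bone-forming cells was chosen after these values were seen: 7 of its 9 tested members were higher with all libraries and 8 without below 3, with Alpl, the phosphatase needed for mineralization, at a log2 fold change of 0.98 ± 0.18, adjusted p = 0.00432 and Sp7, an osteoblast transcription factor, at a log2 fold change of 1.2 ± 0.27, adjusted p = 0.00859. Of 8 osteoclast genes, chosen in the same way, 5 were higher (6 without below 3), among them the collagen-degrading protease Ctsk (34.2, 42.2, 62.8 and 67.3 CPM at the epicenter and 9.43, 5.32, 16.5 and 13.6 CPM below; log2 fold change 2.21 ± 0.30, adjusted p = 0.0013) and the acid phosphatase Acp5 (log2 fold change 2.10 ± 0.54, adjusted p = 0.0155), with the cell fusion protein Dcstamp at a low level (log2 fold change 1.91 ± 0.45, adjusted p = 0.0107). Of all genes, 11.0% were called higher with all libraries and 23.3% without below 3. Both lists were chosen with the values known, so their counts lend no support of their own. Summed levels of the bone-forming list ran from 37.5 to 87.7 CPM at the epicenter and from 19.2 to 23.5 CPM below. The part of bone tissue in the pieces was not tested.

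Of 15 matrix proteases and inhibitors, 7 were higher at the epicenter (9 without below 3), beside 11.0% of all genes called higher (23.3% without below 3); none was lower, and the count fell to 4 without epicenter 4. Besides Mmp13, the stromelysin Mmp3 (1.2, 2.91, 3.67 and 3.89 CPM at the epicenter and 0.689, 0.937, 0.251 and 1.62 CPM below; log2 fold change 1.74 ± 0.44, adjusted p = 0.0141), the gelatinase Mmp9 (15.4, 18.1, 35.3 and 40.3 CPM at the epicenter and 8.04, 8.42, 2.08 and 5.39 CPM below; log2 fold change 2.19 ± 0.36, adjusted p = 0.0030) and the metalloproteinase inhibitor Timp1 (37.4, 48.7, 45.6 and 44.9 CPM at the epicenter and 12.8, 6.46, 23.8 and 17.4 CPM below; log2 fold change 1.55 ± 0.26, adjusted p = 0.00337) were higher. Timp1 and Mmp9 did not overlap between segments, whereas Mmp3 of epicenter 1 lay under below 4. Mmp2 and Mmp14 were called too, but not without epicenter 4 (adjusted p = 0.0506 and 0.0652), nor, for Mmp14, without below 1 or below 4. Mmp9 is also one of the neutrophil genes below. The proximal promoters of Mmp13 and Mmp3, both on chromosome 9, are shown because these genes were higher and hold the motif named next. Mmp12, which lies between them, was not called with all libraries and had no match. Each sequence runs from 250 bases before to 50 after the annotated start (RefSeq, GRCm38.p6, plus strand), and capitals mark TGANTCA, the AP-1 type motif, searched on both strands.
Mmp13, chr9:7272264-7272563: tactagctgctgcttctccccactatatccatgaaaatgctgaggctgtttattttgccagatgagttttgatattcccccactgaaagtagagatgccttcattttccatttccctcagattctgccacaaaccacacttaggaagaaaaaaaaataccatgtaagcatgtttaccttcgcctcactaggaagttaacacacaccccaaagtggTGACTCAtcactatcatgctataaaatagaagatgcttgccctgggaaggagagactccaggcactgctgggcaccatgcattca
Mmp3, chr9:7445572-7445871: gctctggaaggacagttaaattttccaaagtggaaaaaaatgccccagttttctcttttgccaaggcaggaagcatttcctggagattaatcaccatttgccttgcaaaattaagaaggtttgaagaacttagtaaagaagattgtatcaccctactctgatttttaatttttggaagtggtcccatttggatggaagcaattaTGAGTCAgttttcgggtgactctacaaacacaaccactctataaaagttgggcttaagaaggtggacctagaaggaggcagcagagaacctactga
The motif was found in 2 of the 10 promoters of this list in the table and in 7.81% of all 32851 promoters of the same length. A match is a description of letters and not a site of binding.

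Fibrous matrix was higher at the epicenter: 11 of 18 fibroblast and matrix genes were called higher with all libraries and 16 without below 3, none lower, with a median fold change of 1.24 against 0.02 over all genes. Of all genes, 11.0% were called higher with all libraries and 23.3% without below 3. The matrix count was 5 without epicenter 4. The collagen VI chain Col6a3 read 56.1, 102, 98 and 98.4 CPM at the epicenter and 22.6, 15.3, 33.5 and 21.4 CPM below (log2 fold change 1.93 ± 0.23, adjusted p = 8.32e-04; 2.17 ± 0.21, adjusted p = 3.37e-06 without below 3), and Col6a1 showed the same order (log2 fold change 1.45 ± 0.25, adjusted p = 0.00352). Fbn1, the microfibril protein fibrillin, read 57.2, 151, 74.7 and 117 CPM at the epicenter and 38.7, 25.9, 43.4 and 42.3 CPM below. Fbn1 had a log2 fold change of 1.41 ± 0.25, adjusted p = 0.00394. Postn, a matricellular protein of scar tissue, was higher (log2 fold change 2.03 ± 0.40, adjusted p = 0.00545), with values of 88.1, 255, 138 and 160.3 CPM at the epicenter and 39.6, 10.4, 62.6 and 45.1 CPM below. Among the genes with the largest differences overall were Tnn, tenascin N (2.75, 23.9, 8.53 and 5.77 CPM at the epicenter and 0.564, 0.369, 0.263 and 0.396 CPM below; log2 fold change 4.68 ± 0.57, adjusted p = 8.32e-04), Aspn, a small proteoglycan of the matrix (log2 fold change 3.48 ± 0.49, adjusted p = 0.00161), and Ltbp2, which binds elastic microfibrils (12.4, 12.9, 21.5 and 30.5 CPM at the epicenter and 1.53, 0.611, 2.92 and 1.62 CPM below; log2 fold change 3.53 ± 0.40, adjusted p = 5.37e-04). Lrrc15, a membrane protein of activated fibroblasts, and Comp, a cartilage matrix protein, were named after their values were seen and were higher too (log2 fold change 4.68 ± 0.51, adjusted p = 4.30e-04; log2 fold change 2.18 ± 0.36, adjusted p = 0.0030). None of these 9 genes overlapped between segments, beside 8.73% of all genes lying entirely higher at the epicenter. For Tnn, Aspn and Ltbp2 the naming rule required this, and Lrrc15 and Comp were named with their values known. The fibrillar collagens Col1a1 and Col3a1 and fibronectin Fn1 also did not overlap but were borderline: Col3a1 read 531, 884, 750.1 and 957 CPM at the epicenter and 145, 51.2, 330.4 and 166 CPM below (log2 fold change 2.17 ± 0.71, adjusted p = 0.0407), and the calls of Col3a1 and Fn1 were lost without any 1 of the 7 libraries other than below 3, that of Col1a1 without any of the same libraries except epicenter 1. The highest adjusted p among these fits was 0.0839, 0.0993 and 0.112. Without below 3 all 3 passed (adjusted p = 0.00529, 0.00671 and 7.39e-04). Clec11a, a growth factor that promotes bone formation in mice, was outside the naming rule and was named after its values were seen. It read 7.21, 9.47, 11.8 and 13.3 CPM at the epicenter and 1.95, 1.81, 1.72 and 1.82 CPM below (log2 fold change 2.52 ± 0.19, adjusted p = 1.09e-05), and was called in the fit of 8 libraries alone (adjusted p = 0.00461), as were Mmp13, Ibsp, Ltbp2, Hoxc12 and Hoxc8. With the replicate block in that fit Ibsp was not called (adjusted p = 0.0678), and the other 5 of these genes were (adjusted p = 0.0052 to 0.0426).

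**Figure D3:**
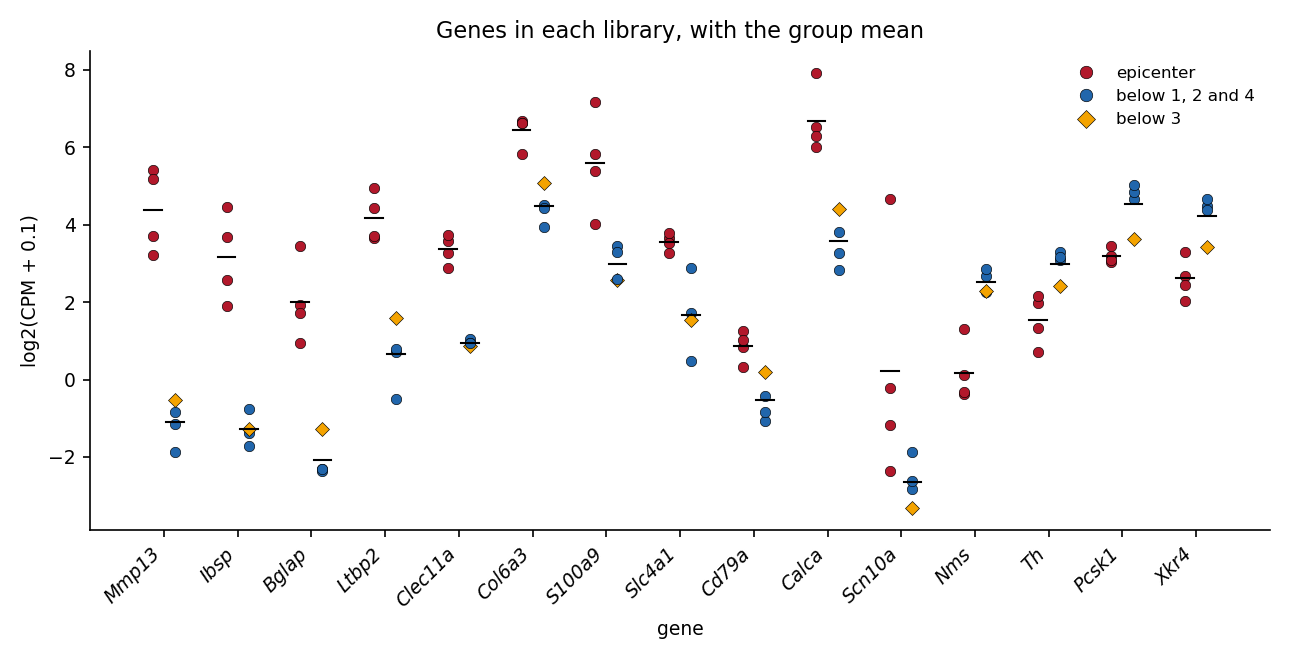
Levels of 15 genes as log2(CPM + 0.1) (y axis) in each epicenter library (red), below 1, 2 and 4 (blue) and below 3 (orange diamonds), with black bars at the mean of the 4 libraries of each segment. The matrix genes, S100a9, Slc4a1, Cd79a and Calca lie higher at the epicenter, Scn10a is high in epicenter 4 alone, and Nms, Th, Pcsk1 and Xkr4 lie lower.

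Genes of blood cells were called with and without below 3. All 11 tested neutrophil genes were higher at the epicenter both with and without below 3, with a median fold change of 2.70 and 2.55, and 8 of 11 did not overlap. Of all genes, 11.0% were called higher with all libraries and 23.3% without below 3, and 8.73% lay entirely higher at the epicenter. S100a9, a calcium-binding protein that neutrophils hold in quantity, read 16, 56.2, 41.3 and 144 CPM at the epicenter and 10.8, 9.73, 5.8 and 5.92 CPM below. S100a9 had a log2 fold change of 3.00 ± 0.59, adjusted p = 0.00536, and 2.86 ± 0.62, adjusted p = 0.00158 without below 3. Its partner S100a8 read 10.4, 37.5, 25.8 and 93.5 CPM at the epicenter and 8.13, 6.19, 4.04 and 3.67 CPM below. S100a8 had a log2 fold change of 2.92 ± 0.56, adjusted p = 0.00517. Epicenter 4 was the highest library for both genes and epicenter 1 came closest to the below libraries. The granule genes Camp (log2 fold change 2.81 ± 0.49, adjusted p = 0.00381), Ngp (log2 fold change 2.68 ± 0.58, adjusted p = 0.00752) and Ltf (log2 fold change 2.74 ± 0.55, adjusted p = 0.00589) and the secreted Retnlg (log2 fold change 2.98 ± 0.56, adjusted p = 0.00465) showed the same direction. Without epicenter 4 the count fell to 7 of 11, with the calls of Ly6g, Elane, Mpo and Csf3r lost (adjusted p = 0.0501, 0.102, 0.152 and 0.099). Elane and Mpo were also lost without epicenter 2, below 2 or below 4, and Csf3r without any library except below 3 (highest adjusted p 0.102, 0.152 and 0.119). Mpo and Elane are made by neutrophil precursors, and at the epicenter Mpo read 1.8, 4.35, 3.24 and 7.84 CPM against 2.15, 1.96, 0.801 and 0.588 below, which overlapped.

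The promoters of 4 of these granule and secreted genes are shown because the genes were higher together and hold a C/EBP-type motif, the sequence class read by factors that drive granule genes in mouse neutrophil precursors. Coordinates are GRCm38.p6 from RefSeq, each sequence is given 5′ to 3′ on the strand of its gene (S100a9 minus, the others plus), and capitals mark TTGCNNAA on either strand.
S100a9, chr3:90695672-90695971: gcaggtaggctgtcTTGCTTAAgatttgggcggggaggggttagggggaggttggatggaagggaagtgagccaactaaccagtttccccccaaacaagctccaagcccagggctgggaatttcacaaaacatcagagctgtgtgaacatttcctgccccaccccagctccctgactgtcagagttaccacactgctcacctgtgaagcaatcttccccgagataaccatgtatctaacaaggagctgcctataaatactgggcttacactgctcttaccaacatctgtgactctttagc
Ngp, chr9:110419558-110419857: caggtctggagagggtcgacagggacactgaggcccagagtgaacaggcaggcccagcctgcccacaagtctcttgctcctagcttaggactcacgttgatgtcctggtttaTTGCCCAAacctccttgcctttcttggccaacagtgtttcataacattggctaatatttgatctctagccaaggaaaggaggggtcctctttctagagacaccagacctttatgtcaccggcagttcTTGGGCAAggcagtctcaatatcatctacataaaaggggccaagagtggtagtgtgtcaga
Ltf, chr9:111019042-111019341: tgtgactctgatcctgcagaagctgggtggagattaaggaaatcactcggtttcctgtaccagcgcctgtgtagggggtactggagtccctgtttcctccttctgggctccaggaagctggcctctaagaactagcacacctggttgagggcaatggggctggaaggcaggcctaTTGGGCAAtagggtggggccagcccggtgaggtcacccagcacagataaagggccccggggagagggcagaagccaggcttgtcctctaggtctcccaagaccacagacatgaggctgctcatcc
Retnlg, chr16:48872358-48872657: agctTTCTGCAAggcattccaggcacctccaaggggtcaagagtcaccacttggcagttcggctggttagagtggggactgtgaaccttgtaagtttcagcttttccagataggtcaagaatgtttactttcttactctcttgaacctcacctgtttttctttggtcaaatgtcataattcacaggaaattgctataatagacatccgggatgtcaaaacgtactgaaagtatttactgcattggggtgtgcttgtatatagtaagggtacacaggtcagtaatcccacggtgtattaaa
The motif was present in 5 of the 10 neutrophil list promoters in the table and in 10.8% of all promoters. S100a8, Camp, Mpo, Elane and Csf3r had no match in this window.

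Red blood cell genes were higher at the epicenter in 7 of 7 cases with and without below 3 (median fold change 1.04 and 0.98). Of all genes, 11.0% and 23.3% were called higher in these fits. The count fell to 5 without below 4. With all libraries 5 of the 7 did not overlap, beside 8.73% of all genes lying entirely higher at the epicenter. The beta-globin Hbb-bt read 153, 133, 170.2 and 129 CPM at the epicenter and 93, 55, 73.7 and 48.8 CPM below (log2 fold change 1.11 ± 0.20, adjusted p = 0.00416), and Hbb-bs moved alike (log2 fold change 1.04 ± 0.24, adjusted p = 0.0103), although reads of near-identical globins may be split between copies. Slc4a1, the anion exchanger of the red cell membrane, read 9.57, 12.4, 13.6 and 11.5 CPM at the epicenter and 7.24, 3.2, 2.78 and 1.3 CPM below (log2 fold change 1.70 ± 0.37, adjusted p = 0.00822), and Alas2, the heme synthesis enzyme of red cell precursors, was higher too (log2 fold change 0.90 ± 0.19, adjusted p = 0.00649). Below 1 was the below library nearest to the epicenter in all 4 of these genes. Of 11 B and plasma cell genes, 6 were higher (7 without below 3, 4 without epicenter 1 or epicenter 4), beside 11.0% of all genes called higher (23.3% without below 3). The B cell receptor chains Cd79a (1.68, 1.14, 2.28 and 1.93 CPM at the epicenter and 0.639, 0.379, 1.05 and 0.46 CPM below; log2 fold change 1.47 ± 0.32, adjusted p = 0.00754) and Cd79b (log2 fold change 1.52 ± 0.35, adjusted p = 0.0092) and the immunoglobulin light chain Igkc (3.37, 2.81, 6.53 and 9.49 CPM at the epicenter and 2.28, 0.843, 1.63 and 1.89 CPM below; log2 fold change 1.74 ± 0.39, adjusted p = 0.00879) were among them. Of 16 T and NK cell genes 2 were called higher (3 without below 3), near the share of all genes, and none was called higher without epicenter 1 or epicenter 4.

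Several immune and glial genes outside these groups were also separated by segment. Il1b, an inflammatory cytokine, read 1.93, 1.96, 1.46 and 3.49 CPM at the epicenter and 0.476, 0.411, 0.777 and 0.716 CPM below. Il1b had a log2 fold change of 1.89 ± 0.39, adjusted p = 0.00628, and its groups did not overlap. It was 1 of 2 called among 18 cytokines and chemokines (12 without below 3), beside 11.0% of all genes called higher (23.3% without below 3). Of 13 genes of monocytes and border macrophages 2 were higher, Plac8 and Fn1, near the 11.0% of all genes. Without below 3 the count was 8, beside 23.3% of all genes. With below 3 kept, the count was 1 when any other library of these segments was left out. Fn1 is also in the matrix list above. Plac8, a marker of infiltrating monocytes, was higher (log2 fold change 1.61 ± 0.37, adjusted p = 0.00987), as were Lcn2, an iron-binding protein made by reactive astrocytes and neutrophils (52.3, 64.4, 76.6 and 60.048 CPM at the epicenter and 10.8, 6.82, 36.2 and 19.3 CPM below; log2 fold change 1.79 ± 0.37, adjusted p = 0.00628), and Cfb, complement factor B (log2 fold change 0.71 ± 0.11, adjusted p = 0.00274), which shares 79.5% of its exonic bases with another gene model. S100b, a calcium-binding protein of astrocytes and Schwann cells, read 562, 554, 502 and 555 CPM at the epicenter and 335, 353, 399 and 329 CPM below. S100b had a log2 fold change of 0.62 ± 0.08, adjusted p = 8.32e-04. Its groups did not overlap, and below 3 was the below library nearest to the epicenter. Tmem119, a microglial membrane protein, was higher as well (50.4, 40.2, 50.6 and 43.3 CPM at the epicenter and 27, 20.003, 36.3 and 23.5 CPM below; log2 fold change 0.79 ± 0.15, adjusted p = 0.00521). Kcnj15, a potassium channel (5.69, 5.65, 10.5 and 13.7 CPM at the epicenter and 0.238, 0.0316, 0.729 and 0.499 CPM below; log2 fold change 4.58 ± 0.65, adjusted p = 0.00183), Esm1, a secreted protein of sprouting endothelium (log2 fold change 2.64 ± 0.46, adjusted p = 0.00368), and Tspan11, a tetraspanin (log2 fold change 2.79 ± 0.60, adjusted p = 0.00739), were higher too.

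Genes of sensory neurons and their neuropeptides divided into 2 patterns. Calca, which encodes the peptide CGRP of nociceptors and motor neurons, read 90.9, 78.2, 64.6 and 243 CPM at the epicenter and 9.53, 6.99, 21 and 13.8 CPM below. Every epicenter library was above every below library, below 3 included (log2 fold change 3.22 ± 0.41, adjusted p = 9.55e-04; 3.56 ± 0.40, adjusted p = 9.53e-06 without below 3), and without epicenter 4 the call remained (adjusted p = 7.92e-04). Its paralog Calcb read 8.55, 7.97, 7.21 and 23.5 CPM at the epicenter and 2.5, 2.14, 4.89 and 2.29 CPM below. Calcb had a log2 fold change of 2.0 ± 0.36, adjusted p = 0.00416. By contrast Scn10a, the sodium channel of dorsal root ganglion nociceptors, read 0.346, 0.761, 0.0938 and 25.3 CPM at the epicenter and 0.175, 0.0421, 0 and 0.0639 CPM below. That difference rested on epicenter 4: the test gave a log2 fold change of 6.55 ± 1.58, adjusted p = 0.0118 with it and an adjusted p of 0.113 without it. The ganglion gene Avil and the peripheral intermediate filament Prph behaved alike, with epicenter 4 at 24.4 and 114 CPM and their calls lost without it (adjusted p = 0.35 and 0.12). These calls were also lost without below 4, for Avil without below 1 or below 2 and for Prph without epicenter 1. Of the 6 tested dorsal root ganglion genes, 4 were called higher with all libraries, 5 higher and 1 lower without below 3, and 1 higher and 1 lower without epicenter 4. Of all genes, 11.0% were called higher with all libraries, and 23.3% higher and 22.7% lower without below 3. Without epicenter 4, 1282 of 24097 were higher and 1053 lower. Summed levels of the ganglion list were 113 CPM in epicenter 4, 20.3 to 21.3 CPM in the other epicenter libraries and 19.4 to 24.8 CPM below.

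Several peptides and enzymes of intrinsic neurons were lower at the epicenter. Nms, the neuropeptide neuromedin S, read 0.977, 2.35, 0.67 and 0.698 CPM at the epicenter and 4.72, 6.25, 4.74 and 7.07 CPM below, with no overlap (log2 fold change -2.27 ± 0.33, adjusted p = 0.00189; -2.35 ± 0.33, adjusted p = 4.74e-05 without below 3). Th, tyrosine hydroxylase of catecholamine synthesis, read 2.41, 3.83, 1.53 and 4.33 CPM at the epicenter and 9.67, 8.31, 5.23 and 8.81 CPM below. Th had a log2 fold change of -1.40 ± 0.26, adjusted p = 0.00462. Pcsk1, a convertase that cuts peptide precursors, read 9.07, 10.7, 8.02 and 8.45 CPM at the epicenter and 25.4, 28.3, 12.2 and 32.3 CPM below. Pcsk1 had a log2 fold change of -1.44 ± 0.22, adjusted p = 0.00224, and -1.66 ± 0.12, adjusted p = 1.24e-06 without below 3. Tac1, the precursor of substance P in dorsal horn neurons, read 17.2, 28.3, 11.3 and 22.6 CPM at the epicenter and 33.3, 55, 30.4 and 62.6 CPM below. Tac1 had a log2 fold change of -1.19 ± 0.25, adjusted p = 0.00681. These 4 genes did not overlap, which the naming rule required for Nms and Pcsk1. Below 3 was the lowest below library for Th, Pcsk1 and Tac1. Sst, the peptide somatostatin of dorsal horn interneurons, was lower (log2 fold change -0.99 ± 0.25, adjusted p = 0.0135), with epicenter 2 above below 3. Crh, corticotropin-releasing hormone, was called but lost the call without epicenter 4 (adjusted p = 0.0561) or below 4. Of 14 dorsal horn genes 5 were lower with all libraries, 11 without below 3 and 2 without epicenter 4, beside 10.2% of all genes called lower, 22.7% without below 3 and 1053 of 24097 without epicenter 4.

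Ion channel and receptor genes showed the same direction in part. Xkr4, a membrane protein of the nervous system, read 6.31, 5.29, 9.67 and 3.99 CPM at the epicenter and 22.1, 25.2, 10.6 and 20.5 CPM below. Xkr4 had a log2 fold change of -1.63 ± 0.33, adjusted p = 0.00611, and -1.84 ± 0.29, adjusted p = 1.49e-04 without below 3. Scn3a, a neuronal sodium channel, read 10.3, 11.9, 13 and 7.51 CPM at the epicenter and 32.4, 37.4, 13.6 and 34.4 CPM below (log2 fold change -1.46 ± 0.26, adjusted p = 0.00414), and Kcna3, a potassium channel, read 2.34, 1.85, 4.05 and 1.16 CPM at the epicenter and 7.03, 6.99, 5.87 and 6.21 CPM below. Kcna3 had a log2 fold change of -1.47 ± 0.31, adjusted p = 0.00725. The naming rule required no overlap for these 3 genes. Below 3 was the lowest below library in each, close to epicenter 3 for Xkr4 and Scn3a. Gabra2, a subunit of the GABA-A receptor, read 19.5, 18.1, 25.5 and 18.5 CPM at the epicenter and 34.6, 33.2, 29.2 and 30.3 CPM below (log2 fold change -0.64 ± 0.10, adjusted p = 0.00292), and Gria1, a subunit of the AMPA receptor, read 109, 117, 122 and 90.7 CPM at the epicenter and 162, 178, 139 and 152 CPM below. Gria1 had a log2 fold change of -0.52 ± 0.10, adjusted p = 0.00458. In both, below 3 stayed above all epicenter libraries. The glycine receptor subunit Glra3 (log2 fold change -2.0 ± 0.45, adjusted p = 0.0092), the synaptic scaffold Homer1 (log2 fold change -0.76 ± 0.18, adjusted p = 0.012) and the synaptotagmin Syt10 (log2 fold change -1.81 ± 0.37, adjusted p = 0.00641) were lower with below 3 inside the epicenter range. WI1-817D1.2, a gene model with no role given in the files, read 4.2, 4.03, 7.37 and 2.84 CPM at the epicenter and 11.7, 12.4, 16.3 and 14.2 CPM below. WI1-817D1.2 had a log2 fold change of -1.56 ± 0.29, adjusted p = 0.00443.

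Most neuronal lists depended on the library below 3. Without it, 13 of 13 GABA and glycine genes, 12 of 13 glutamatergic genes, 13 of 15 voltage-gated channels and 8 of 14 general neuronal genes were lower at the epicenter. With it the counts were 4, 5, 4 and 2, beside 10.2% of all genes called lower with all libraries and 22.7% without below 3. Without epicenter 4 but with below 3 the counts were lower still for the first 3 lists, at 2, 2 and 1. For general neuronal genes both calls were lost without epicenter 1. Gad2, which makes GABA, read 48.3, 65.5, 44.9 and 43.5 CPM at the epicenter and 130.1, 159, 33.1 and 138 CPM below (log2 fold change -1.19 ± 0.32, adjusted p = 0.0178; -1.49 ± 0.13, adjusted p = 1.54e-06 without below 3), and its call with all libraries was lost without epicenter 4 (adjusted p = 0.060), below 2 or below 4. The glycine transporter Slc6a5 read 190.2, 184, 194 and 186 CPM at the epicenter and 351, 479, 76.7 and 345 CPM below. It did not pass with all libraries (log2 fold change -0.73 ± 0.34, adjusted p = 0.133) and did when below 3 was left out (log2 fold change -1.05 ± 0.12, adjusted p = 9.56e-06). The same held for Slc17a6, the vesicular glutamate transporter of cord neurons (log2 fold change -0.71 ± 0.34, adjusted p = 0.145; -1.04 ± 0.10, adjusted p = 3.96e-06 without below 3), for the sodium channel Scn1a (log2 fold change -0.90 ± 0.42, adjusted p = 0.135; -1.26 ± 0.13, adjusted p = 5.51e-06 without below 3) and for Snap25 (log2 fold change -0.25 ± 0.38, adjusted p = 0.653; -0.60 ± 0.14, adjusted p = 0.00326 without below 3). Syt1, a calcium sensor of synaptic vesicles, read 70.1, 84.5, 65.5 and 56.3 CPM at the epicenter and 167, 179, 43.3 and 152 CPM below (log2 fold change -0.97 ± 0.29, adjusted p = 0.030; -1.26 ± 0.11, adjusted p = 2.15e-06 without below 3), and its call with all libraries was lost without any other library except epicenter 2 (highest adjusted p 0.0926). In each of these genes below 3 was the lowest of the 8 libraries. Of 12 motor neuron and cholinergic genes, 3 were higher and none lower with all libraries, against 3 higher and 3 lower without below 3. The shares of all genes called were 11.0% higher with all libraries, and 23.3% higher and 22.7% lower without below 3. The list counts without below 3 were near these shares. The 3 higher genes were Calca, Mmp9 and Prph in both fits. Calca is also a gene of nociceptors, Mmp9 is also in the neutrophil list, and the call of Prph was lost without epicenter 4.

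Phagocyte genes were called mainly when below 3 was left out. None of 16 genes of phagocytic microglia and macrophages passed with all libraries and 13 were higher without below 3; for complement the counts were 1 and 13 of 14, for Fc and Toll-like receptors 0 and 12 of 16, for lysosomal genes 1 and 10 of 16, for antigen presentation 3 and 11 of 15, and for homeostatic microglia 2 and 9 of 12, beside 11.0% and 23.3% of all genes. Without epicenter 1 but with below 3, no antigen presentation gene and 1 microglial gene were called. In the lists with no call, edgeR gave 0 phagocyte and 4 receptor genes an unadjusted p under 0.05, and DESeq2's adjusted p called 0 and 1. The apolipoprotein gene Apoe read 13657, 12190.0, 12520.0 and 10864 CPM at the epicenter and 5751, 2687, 15862 and 6451 CPM below. Apoe had a log2 fold change of 0.68 ± 0.35, adjusted p = 0.173, and 1.31 ± 0.21, adjusted p = 1.53e-04 without below 3. Trem2, a lipid receptor of phagocytes, read 246, 235, 227 and 180.5 CPM at the epicenter and 102, 42.4, 279 and 109 CPM below (log2 fold change 0.74 ± 0.36, adjusted p = 0.149; 1.39 ± 0.22, adjusted p = 1.43e-04 without below 3), and C1qa, a chain of complement C1q, read 589, 527, 512 and 428 CPM at the epicenter and 255, 109, 612 and 263 CPM below. C1qa had a log2 fold change of 0.73 ± 0.33, adjusted p = 0.126, and 1.30 ± 0.22, adjusted p = 2.32e-04 without below 3. For all 3, below 3 was above every epicenter library and below 1, 2 and 4 were under every one. Spp1, osteopontin, Tyrobp, an adaptor of phagocyte receptors, and Lyz2, lysozyme, passed only without below 3 as well (log2 fold change 1.44 ± 0.25, adjusted p = 2.55e-04; log2 fold change 1.41 ± 0.25, adjusted p = 2.88e-04; log2 fold change 1.31 ± 0.41, adjusted p = 0.0152). Gpnmb, a glycoprotein of lipid-laden phagocytes, did not pass either way, reading 1084, 775, 1388 and 648 CPM at the epicenter and 727, 106, 2270.5 and 794 CPM below (0.84 ± 0.46, adjusted p = 0.15 without below 3). Among markers of all microglia, Csf1r and Cx3cr1 had adjusted p = 0.183 and 0.168 with all libraries and 0.00314 and 2.33e-04 without below 3. Summed levels of the phagocyte list were 17344 to 22542 CPM at the epicenter, 4607 to 11823 CPM in below 1, 2 and 4, and 30280 CPM in below 3.

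Astrocyte, basement membrane and cell cycle lists showed a like pattern of counts. Beside 11.0% of all genes called higher with all libraries and 23.3% without below 3, of 17 reactive astrocyte genes 4 were higher with all libraries and 15 without below 3, of 14 basement membrane genes 0 and 10 (2 at an unadjusted p under 0.05 in edgeR, 0 by DESeq2), and of 12 proliferation genes 4 and 12. With below 3 kept, the astrocyte count was 2 without epicenter 2 and the proliferation count 1 without below 2. Gfap, the intermediate filament of astrocytes, read 6149, 5272, 5996 and 4538 CPM at the epicenter and 3390.5, 2132, 7768 and 3359 CPM below. Gfap had a log2 fold change of 0.40 ± 0.27, adjusted p = 0.308, and 0.89 ± 0.14, adjusted p = 1.57e-04 without below 3. Vim, vimentin, and Serpina3n, a secreted protease inhibitor, passed only without below 3 (log2 fold change 1.10 ± 0.19, adjusted p = 2.13e-04; log2 fold change 1.01 ± 0.20, adjusted p = 7.20e-04). Igfbpl1 read 16.9, 15.2, 21.3 and 11.7 CPM at the epicenter and 2.92, 0.527, 22.3 and 2.68 CPM below. Igfbpl1 had a log2 fold change of 1.2 ± 0.69, adjusted p = 0.224, and 3.01 ± 0.40, adjusted p = 3.26e-05 without below 3. Of 12 homeostatic astrocyte genes 1 was higher with all libraries (S100b) and 3 without below 3, and the water channel Aqp4 and the glutamate transporter Slc1a3 did not pass with or without below 3 (adjusted p = 0.173 and 0.121 without it).

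**Figure D4:**
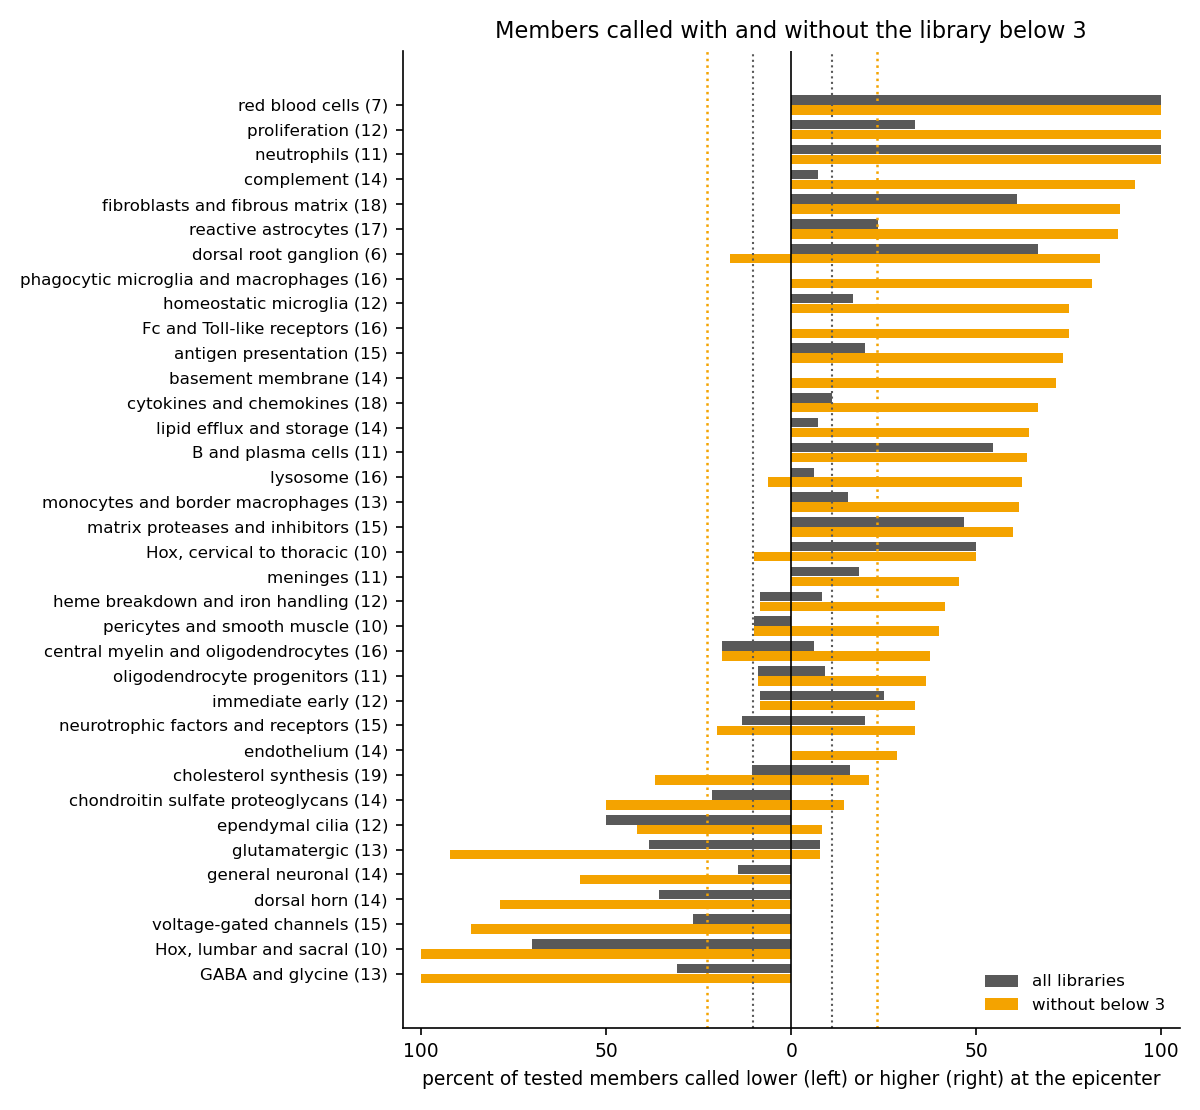
Percent of the tested members of each list (number tested in parentheses) called higher (right of 0) or lower (left) at the epicenter, with all libraries (grey) and without below 3 (orange), for lists with at least 4 members called in 1 direction. Dotted lines mark the share of all genes called in that direction, 11.0% and 10.2% in grey and 23.3% and 22.7% in orange. Red blood cell and neutrophil lists reach 100% either way, while phagocyte, complement and GABA and glycine lists rise without below 3.

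Genes of motile cilia, carried in the cord by the ependymal cells that line the central canal, were in part lower at the epicenter: 6 of 12 were lower with all libraries and 5 without below 3, beside 10.2% and 22.7% of all genes called lower. Ccdc39, needed for ciliary beating, read 19.6, 22.7, 26.8 and 19.4 CPM at the epicenter and 30.6, 36.8, 31.5 and 34.8 CPM below. Ccdc39 had a log2 fold change of -0.60 ± 0.11, adjusted p = 0.00416, and -0.62 ± 0.11, adjusted p = 3.02e-04 without below 3. The axonemal motor Dnah9 (log2 fold change -0.84 ± 0.16, adjusted p = 0.00488) and the axoneme genes Cfap54 (log2 fold change -0.97 ± 0.23, adjusted p = 0.0114) and Spag17 (log2 fold change -0.57 ± 0.13, adjusted p = 0.0106) were lower as well and did not overlap. The transcription factor Foxj1, which drives the ciliary program, read 51, 50.1, 46.1 and 44.1 CPM at the epicenter and 34.9, 34.3, 69 and 32.8 CPM below (log2 fold change 0.16 ± 0.18, adjusted p = 0.537) and was higher at the epicenter when below 3 was left out (log2 fold change 0.49 ± 0.07, adjusted p = 3.70e-05). Genes on the opposite strand cover 16.9% of the exonic bases of Ccdc39 and 15.7% of those of Spag17.

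Central myelin genes were called in both directions. Of 16 genes of central myelin, 1 was higher and 3 lower with all libraries (6 and 3 without below 3), and none was called without epicenter 4. Of all genes, 11.0% were higher and 10.2% lower, and without below 3 23.3% and 22.7%. Mog, a glycoprotein on the myelin surface, read 145, 156, 122 and 135 CPM at the epicenter and 111, 119, 152 and 109 CPM below. Mog did not pass with all libraries (log2 fold change 0.19 ± 0.10, adjusted p = 0.197) and was higher without below 3 (log2 fold change 0.31 ± 0.07, adjusted p = 0.00303). Mbp, the myelin basic protein and the most abundant of the list, likewise did not pass with all libraries (log2 fold change 0.32 ± 0.13, adjusted p = 0.0812) and was higher without below 3 (log2 fold change 0.44 ± 0.09, adjusted p = 0.00117). Mbp also passed without epicenter 3. In both genes below 3 lay inside the epicenter range. Of 14 Schwann cell genes 1 was called with all libraries, and 3 were higher and 1 lower without below 3. The called gene was Drp2, a dystrophin relative that peripheral myelin needs, and it was lower, with 195, 136, 192 and 147 CPM at the epicenter and 303, 248, 323 and 258 CPM below (log2 fold change -0.76 ± 0.13, adjusted p = 0.00377). Ptprz1, the receptor phosphatase that carries phosphacan, was lower (log2 fold change -0.73 ± 0.17, adjusted p = 0.0098), as was the neurotrophin receptor Ntrk3 (35.9, 33.3, 43.2 and 35.2 CPM at the epicenter and 53.4, 59.1, 43.4 and 50.1 CPM below; log2 fold change -0.48 ± 0.10, adjusted p = 0.00739). No member of the respiratory chain (15), endothelial (14), skeletal muscle (8) or fat (4) lists was called with all libraries, while at an unadjusted p under 0.05 edgeR gave 4, 2, 1 and 1 members and DESeq2's adjusted p called 3, 0, 0 and 0.

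Differences also followed the length of genes. Over 14121 genes with a mean of at least 5 CPM in a segment, the median fold change was 0.24 in the shortest of 5 equal bins (53 to 2095 bases in the deposited table) and -0.21 in the longest (6634 to 84395 bases), with 0.10, 0.02 and -0.06 between. The shortest bin held 892 higher and 155 lower calls, and the longest 111 and 860. Without below 3 the medians of these bins were 0.24 and -0.24. Across genes, which are not independent replicates, Spearman's rho between length and fold change was -0.418, and -0.348 without below 3. Among the largest rises was 1 short noncoding RNA. Rmrp, the RNA of a mitochondrial and nucleolar ribonuclease, read 3.41, 4.17, 12.6 and 5.12 CPM at the epicenter and 0.764, 0.474, 0.837 and 0.754 CPM below (log2 fold change 3.16 ± 0.47, adjusted p = 0.0021), and Rpph1, the RNA of ribonuclease P, named after its values were seen, read 2.13, 2.27, 5.2 and 4.82 CPM at the epicenter and 0.501, 0.685, 0.466 and 0.639 CPM below. Rpph1 had a log2 fold change of 2.65 ± 0.36, adjusted p = 0.0013. They share 100% and 73.0% of their exonic bases on the same strand with other gene models, so their reads are uncertain. The ribosomal-type rows rose in the same libraries, with Lars2 at 7999, 13151, 19458 and 11855 CPM at the epicenter and 3305, 3335, 4433 and 5150.0 CPM below (log2 fold change 1.69 ± 0.23, adjusted p = 0.00154). The part of RNA length or quality in the calls was not tested.

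**Figure D5:**
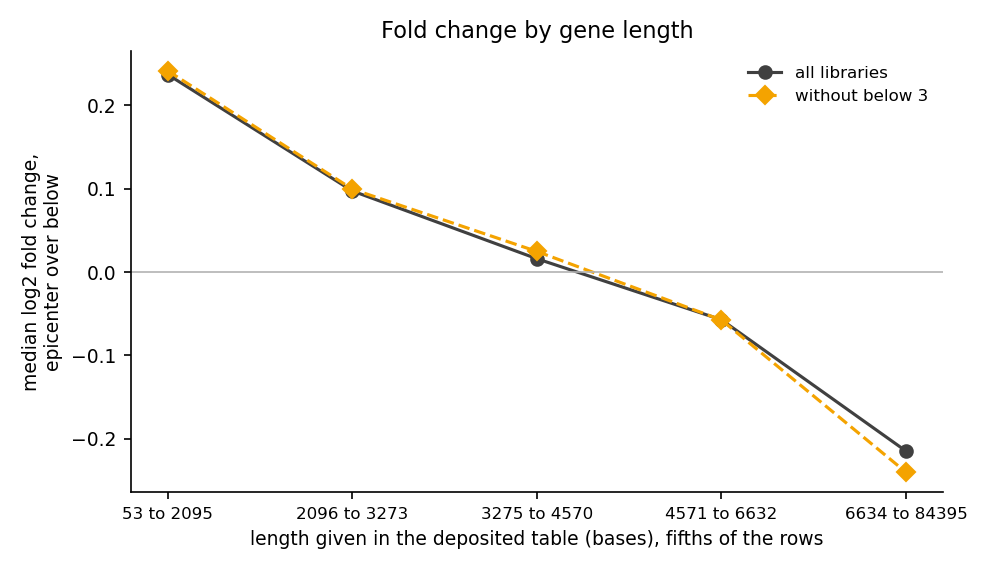
Median log2 fold change of the epicenter over below (y axis) in 5 bins of genes by the length given in the deposited table (x axis, bases), with all libraries (grey) and without below 3 (orange). The medians fall from 0.24 in the shortest bin to -0.21 in the longest with all libraries, and from 0.24 to -0.24 without below 3.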

How the data were processed

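RNA of 16 spinal cord samples was sequenced from libraries of the TruSeq RNA Sample Prep Kit v2, which does not mark strand, from 200 ng of RNA per the labels' protocols. The authors deposited raw counts per gene for 43346 rows. Per the submitters' processing notes, TopHat2 2.0.12, Subread 1.4.4, edgeR and mm10 were named, and the annotation release is not given in the sources used here. The 37 mitochondrial rows hold only 0. Columns were matched to samples by the library names in the labels.

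The 2 segments were compared with edgeR 4.0.16 (R 4.3.3): trimmed-mean scaling, a filter by expression in each group that left 23769 rows, a quasi-likelihood F test over all 16 libraries and Benjamini-Hochberg adjustment at 0.05. Without below 3, all steps were repeated. Alternatives used limma 3.58.1 and DESeq2 1.42.0 and left out each library in turn. Tables, the exact permutation tests and figures used pandas 2.3.3, SciPy 1.17.1 and matplotlib 3.10.9. The scripts were tested on simulated data. CPM in the text are counts divided by scaled library size. Intervals and the limit of 3 counts cover counting error only.

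Genes were named by rule: the 12 largest rises and 12 largest falls among called genes without overlap and with at least 5 CPM in the higher group, the same without below 3, in each list the 3 members of smallest adjusted p and the most abundant one, all Hox genes, and tissue markers. The members, the 46 lists and the comparison were chosen with earlier results of these data known, and the bone-forming and osteoclast lists after values were seen. Replicate numbers were checked as pairs: deviations of same-numbered epicenter and below libraries correlated at 0.210, 0.334, 0.416 and 0.150, all over 0.1, which met the rule set for treating the numbers as pairs. Of the 12 unlike-numbered pairs, 4 were over 0.1 too (0.110 to 0.197), and the labels do not say what the numbers mark. The main tests therefore left the numbers unpaired although the rule was met, and the replicate block was run as an alternative. Of the genes in the text, 108 were called in the main fit and 14 with the block in the fit of 8 libraries. No pair of libraries of a segment was a duplicate, since their counts differed by 23.5 to 711 on a chi-square scale divided by its degrees of freedom. Of the genes in the text, 149 of 150 matched GENCODE M21, and 26 share over 5% of exonic bases with another gene. Some results are not reported here.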

Additional observations from a re-analysis of the deposited data

Results flagged for a closer look

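A library was listed here when its gap to the nearest library of its segment exceeded Dixon's critical value for 4 samples, which chance does in about 1 in 20 groups. Of 396 groups of 4 libraries examined, 51 met this, 32 of them at below 3, 7 at epicenter 4 and 12 elsewhere. Genes are given as log2(CPM + 0.1) and lists as the mean of that value over their tested members, each beside the range of the other 3 libraries of the segment. Among lists, below 3 was the highest below library for homeostatic astrocytes at 8.59 against 8.28 to 8.30, endothelium at 5.70 against 4.94 to 4.99, pericytes and smooth muscle at 4.75 against 3.45 to 3.64 and ependymal cilia at 3.33 against 2.51 to 2.63. It was the lowest below library for the lists glutamatergic at 4.28 against 5.80 to 6.07, GABA and glycine at 4.45 against 6.28 to 6.61, dorsal horn at 2.69 against 4.04 to 4.22, Hox, cervical to thoracic at 3.50 against 3.86 to 3.90 and Hox, thoracic at 4.16 against 4.88 to 4.96. Among single genes, it was the highest below library for Bglap at -1.28 against -2.36 to -2.31, Avil at 1.83 against 0.60 to 0.76, Cfap54 at 4.17 against 3.40 to 3.53, Spag17 at 1.90 against 1.38 to 1.46 and Foxj1 at 6.11 against 5.04 to 5.13. The genes in which it was the lowest were Hoxa10 at 4.26 against 5.00 to 5.11, Hoxb5 at 3.46 against 4.69 to 4.85, Hoxb6 at 4.21 against 5.18 to 5.30, Hoxb7 at 3.01 against 4.09 to 4.2 and Hoxb8 at 4.66 against 6.68 to 6.96. It was also the lowest for Hoxb9 at 4.02 against 5.72 to 5.86, Hoxc5 at 3.85 against 4.25 to 4.29, Hoxd10 at 4.04 against 4.99 to 5.18, Hoxd11 at 3.07 against 4.68 to 4.98 and Scn3a at 3.77 against 5.02 to 5.23. Further genes with below 3 lowest were Glra3 at 0.92 against 3.20 to 3.37, Syt10 at 1.48 against 2.80 to 2.93, Snap25 at 7.80 against 10.31 to 10.70, Rbfox3 at 3.98 against 6.49 to 6.99 and Syt1 at 5.44 against 7.25 to 7.48. Below 3 was lowest as well for Gad2 at 5.05 against 7.02 to 7.31, Slc17a6 at 4.79 against 7.07 to 7.41 and Scn1a at 5.05 against 7.93 to 8.43.

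Epicenter 4 was the highest epicenter library for dorsal root ganglion at 3.98 against 0.52 to 0.93, Hoxc9 at 4.41 against 3.94 to 4.01, Mmp14 at 6.89 against 6.53 to 6.57, Calcb at 4.56 against 2.87 to 3.11 and Avil at 4.61 against 1.23 to 1.74. Epicenter 4 was the lowest epicenter library for Hoxd13 at -3.32 against -2.71 to -2.65 and Serpina3n at 9.03 against 9.58 to 9.65. Below 2 was the lowest of its segment for T and NK cells at -1.23 against -0.47 to -0.40, neurotrophic factors and receptors at 3.54 against 3.90 to 3.92 and Acp5 at 0.61 against 2.86 to 2.91. Below 1 was the highest of its segment for interferon response at 3.98 against 3.50 to 3.57. Epicenter 3 was the highest of its segment for pericytes and smooth muscle at 4.18 against 3.93 to 3.97 and Phex at 1.27 against 0.30 to 0.46. Epicenter 3 was the lowest of its segment for respiratory chain at 6.91 against 7.28 to 7.34, Hoxd9 at 3.84 against 4.24 to 4.31, S100b at 8.97 against 9.11 to 9.13 and Rbfox3 at 5.53 against 6.11 to 6.23. Epicenter 2 was the highest of its segment for Hoxc11 at 1.90 against -1.39 to -0.96. Epicenter 1 was the lowest of its segment for Col6a3 at 5.81 against 6.62 to 6.67.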

How the results depend on the processing

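The number of genes called, 5062 with all 16 libraries in the fit, was 31 (29 higher, 2 lower) with only the 8 libraries of both segments and 54 (45 higher, 9 lower) with the replicate block in that fit, which pairs equal replicate numbers. It was 8464 (4255 higher, 4209 lower) with only these libraries and without below 3, an alternative added after seeing the data. It was 11496 (5936 and 5560) with limma's library weights and 10187 (5124 and 5063) without below 3 and epicenter 4, also added after seeing the data. With library totals alone, 1652 were higher and 3729 lower. Leaving out 1 library gave from 2335 genes without epicenter 4 to 11057 without below 3, with 1282 to 5609 higher and 1053 to 5448 lower. Of the distinct list members, 135 were called, against 4 with the 8 libraries, 8 with the replicate block, 301 without below 3 in that fit, 339 with library weights, 337 without below 3 and epicenter 4, and 72 to 355 without 1 library. The ribosomal-type share differed by 3.76 to 5.51 percentage points without 1 library, where 3 against 4 cannot reach the threshold. Of the genes examined singly, 12 were called with the 8 libraries and 14 with the block, among them Ctsk, Kcnj15, Comp, Tac1 and Cfap54 only with it and Ibsp, Phex, Lrrc15 and Rpph1 only without it. Aqp4 had a log2 fold change of -0.24 with all libraries, not called, and of 0.50 without below 3 and epicenter 4. No other of these 150 genes reversed; a sign change of a value called in neither fit counts as unchanged. The cause of these changes was not tested. DESeq2 size factors, DESeq2, limma-voom, both filters and the scalings without ribosomal rows kept the count within 1.5 times. Genes near 3 counts per library cannot be resolved at this depth.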
